A study of Mus musculus with 16 samples.

Results

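The genes described here build ribosomes. They were taken by symbol, as every gene of the RNA-seq count table whose name begins with *Nop*, *Nol*, *Utp* or *Rrp* followed by a digit, or with *Polr1*. The rule took 41 of the 15386 genes in that table, and 39 of them were among the 13490 genes of the m6A table. It used names only and no measured value. It does not take every gene of the process: *Nop*, *Utp* and *Rrp* genes are mostly nucleolar rRNA-processing factors, whereas RNA polymerase I subunits under older symbols and the many factors named *Wdr*, *Ddx* or *Gnl* lie outside it and are given as separate lists. *Nol3*, an apoptosis repressor, and *Nol4l* share the symbol pattern but are not known for making ribosomes, and *Utp14b-ps1* is a pseudogene.

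RNA polymerase I transcribes the ribosomal DNA repeats in the nucleolus into a single long precursor. Small nucleolar ribonucleoproteins (snoRNPs), which are guide RNAs with a protein core, then direct the methylation and pseudouridylation of that precursor, and the box C/D snoRNP U3 helps fold it for cleavage. The UTP proteins and their partners assemble on the 5′ end of the precursor as the small-subunit processome, while other factors cut and fold the large-subunit rRNAs. Erythroid progenitors make ribosomes at a high rate before they fill with hemoglobin, and in people inherited defects of ribosome production can show as anemia.

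Bulk RNA-seq was measured in 3 libraries of control CFU-E cells and 3 libraries of CFU-E Kit-lo cells labelled *Mettl3*-deficient, all sorted from mouse bone marrow. CFU-E cells are erythroid progenitors that precede the proerythroblast, Kit is a growth factor receptor on their surface, and Kit-lo cells carry little of it. *Mettl3* encodes the catalytic subunit of the m6A methyltransferase, and m6A is a methyl mark on adenosines of mRNA. The *Mettl3*-deficient adult mice carried 2 floxed *Mettl3* alleles and the *EpoR-tdTomato-Cre* driver (*Mettl3 fl/fl EpoR Cre/–*), which per the study recombines in erythroid cells, in erythroblastic island macrophages and partly in stem cells. The groups thus differed in genotype and in the Kit level of the sorted cells, and these cannot be told apart here. Separately, m6A immunoprecipitate (IP) and input were sequenced from control CFU-E cells, with 2 libraries of each. The labels do not say whether libraries came from separate mice, so p-values measure only the spread between these libraries.

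The 10 libraries held between 17429262 and 37142742 estimated counts. *Mettl3* itself was at 123 ± 7.43 CPM (counts scaled to the size of each library) in control and 117 ± 9.52 CPM in Kit-lo libraries (SD, n = 3 each), with a log2 difference of -0.07 and an adjusted p of 0.63. Counts summed over a gene do not show whether a floxed exon was lost, so this is no check of the deletion, and directions below rest on the labels. *Kit*, the receptor of the gate, was 10.8-fold lower, at 55.2 ± 12.4 against 598 ± 47.1 CPM (SD, n = 3 each). The summed level of 10 late erythroid markers was 1170 to 1290 CPM in control and 4120 to 5950 CPM in Kit-lo libraries, and 7 of the 10 rose. The 8 erythroid progenitor markers summed to 3170 to 3270 CPM in control and 3240 to 3390 CPM in Kit-lo libraries, though 4 of the 8 rose (*Epor*, *Klf1*, *Nfe2* and *Zfpm1*) and *Kit* fell. The 4 megakaryocyte markers summed to 13.1 to 20.4 CPM in control and 20.0 to 25.9 CPM in Kit-lo libraries, and 2 of the 4 rose. All 9 listed macrophage markers together reached at most 14.9 CPM, with *Adgre1* at no more than 3 counts in every RNA-seq library, and the 10 granulocyte markers reached at most 39.2 CPM. The Kit-lo libraries therefore also carried more late erythroid RNA beside every difference given below, and its part in those differences was not tested. In bulk samples, fewer cells of a type and less RNA per cell cannot be told apart.

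Of the ribosome biogenesis genes, 5 fell between control and Kit-lo cells and none was called higher. The snoRNP core genes *Rrp9* and *Nop58* fell most, followed by *Utp11*, *Utp4* and *Utp18* of the small-subunit processome. Of the 41 genes, 40 passed the filter on low counts, and *Utp14b-ps1*, at 0 to 8 counts, did not. A gene was called when it differed by at least 1.5-fold with a Benjamini-Hochberg adjusted p under 0.05 over all 11979 genes tested (edgeR's quasi-likelihood test). By that rule 5 of 40 fell in Kit-lo cells (12.5%), beside 9.83% of all genes. None of the 40 was called higher by edgeR or by DESeq2, beside 12.1% of all genes, and 1, *Nol4l*, passed the fold with an unadjusted p under 0.05. At the same adjusted p and any fold, 10 of 40 were lower (25%, beside 16.9% of all genes) and 6 were higher (15%, beside 17.6%). The groups of 3 did not overlap in 20 of 40 genes (50%), close to the 47.5% of all genes. The median log2 difference was 0.041, beside 0.008 for all genes, with 19 genes below 0 and 21 above. In 32 of 40 genes (80%) the change was smaller than 1.5-fold, as in 67.1% of all genes. The summed level of the 41 genes was 7018 to 8005 CPM in control and 6672 to 7305 CPM in Kit-lo libraries, which overlap.

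**Figure D1:**
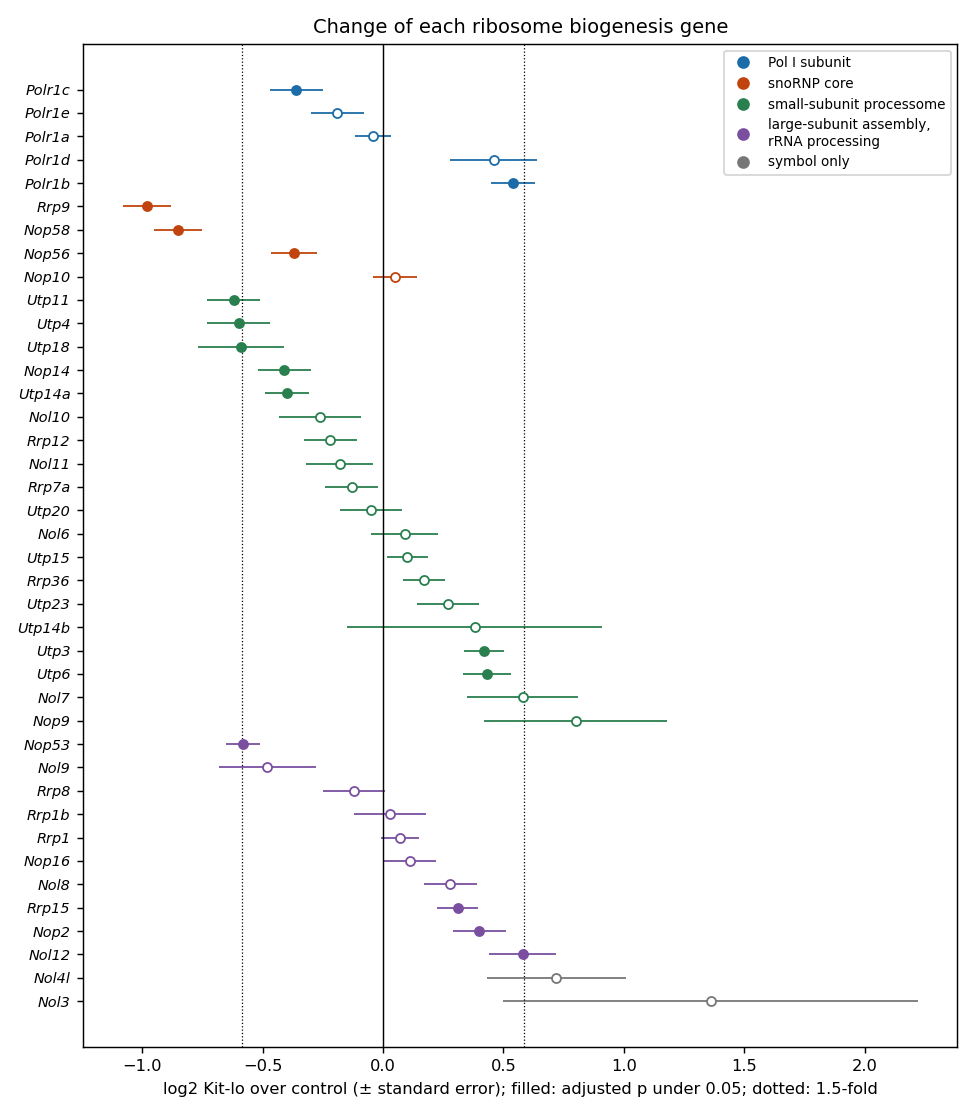
Log2 of the Kit-lo over the control level for each of the 40 tested genes, grouped by role, with standard errors as bars. Filled points had an adjusted p under 0.05, and the dotted lines mark a 1.5-fold change. Rrp9 at -0.98 and Nop58 at -0.85 stand farthest below 0, and the 5 RNA polymerase I subunits lie between the lines.

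The promoter windows of 4 of the 5 genes that were called lower are shown here (*Utp11* had no entry in the table). Their shared direction follows from that choice. They are RefSeq sequences on GRCm38.p6, each running from 250 bases before the annotated start to 30 bases after it, written 5′ to 3′ on the gene's strand. Capitals mark the E-box CACGTG, the palindromic site that MYC and related factors are known to bind, and all other bases are in lower case. *Rrp9* lies on chromosome 9 (window chr9:106477059-106477338, plus strand), *Nop58* on chromosome 1 (window chr1:59684756-59685035, plus strand), *Utp4* on chromosome 8 (window chr8:106893390-106893669, plus strand) and *Utp18* on chromosome 11 (window chr11:93885737-93886016, minus strand).
*Rrp9*: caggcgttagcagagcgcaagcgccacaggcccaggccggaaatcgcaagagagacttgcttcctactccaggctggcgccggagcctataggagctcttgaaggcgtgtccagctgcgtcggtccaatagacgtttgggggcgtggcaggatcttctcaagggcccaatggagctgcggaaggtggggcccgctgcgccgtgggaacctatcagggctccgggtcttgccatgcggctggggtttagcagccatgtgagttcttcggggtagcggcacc
*Nop58*: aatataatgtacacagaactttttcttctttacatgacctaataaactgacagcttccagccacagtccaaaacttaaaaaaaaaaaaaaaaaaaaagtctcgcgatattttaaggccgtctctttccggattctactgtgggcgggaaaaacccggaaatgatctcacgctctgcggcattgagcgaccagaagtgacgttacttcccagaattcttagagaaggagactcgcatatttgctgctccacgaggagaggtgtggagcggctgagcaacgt
*Utp4*: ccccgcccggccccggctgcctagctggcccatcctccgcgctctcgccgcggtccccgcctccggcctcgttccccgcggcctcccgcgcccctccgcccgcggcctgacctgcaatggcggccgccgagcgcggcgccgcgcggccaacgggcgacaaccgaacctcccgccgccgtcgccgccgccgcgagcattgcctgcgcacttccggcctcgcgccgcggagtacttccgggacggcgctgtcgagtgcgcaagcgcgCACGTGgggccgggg
*Utp18*: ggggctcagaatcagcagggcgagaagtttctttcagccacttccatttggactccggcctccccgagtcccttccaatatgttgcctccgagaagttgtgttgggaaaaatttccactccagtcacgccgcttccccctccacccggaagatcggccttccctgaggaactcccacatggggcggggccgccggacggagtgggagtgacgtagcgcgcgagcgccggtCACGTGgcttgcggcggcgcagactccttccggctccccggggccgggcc
The E-box of *Utp18* begins 20 bases before the annotated start and that of *Utp4* 15 bases after it. The windows of *Rrp9* and *Nop58* hold none. The RefSeq promoter table matched 33 of the 41 genes, and the windows of 7 of the 33 (21.2%) held the motif in the full span from 250 bases before to 50 bases after the start. Among all genes tested in the RNA-seq that the table holds, 1076 of 9175 (11.7%) had one, and of all 27025 genes it holds, 8.09%. The other 5 genes with the motif were *Nol11*, *Rrp7a*, *Utp14b*, *Utp20* and *Nop2*, and none of them was called in the RNA-seq. The letters were therefore present in promoters of genes that fell and of genes that were not called.

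RNA polymerase I subunits did not move in one direction. *Polr1a* encodes the largest catalytic subunit. It stood at 225, 212 and 223 CPM in control, beside 222, 207 and 211 CPM in Kit-lo libraries. The groups overlapped, and the log2 difference was -0.04 ± 0.075 (standard error, adjusted p = 0.70), with a 95% interval from -0.21 to 0.12. *Polr1b*, the second-largest subunit, was at 231, 208 and 223 CPM in control and 356, 295 and 312 CPM in Kit-lo libraries. All 3 Kit-lo libraries lay above all controls, and the log2 difference of 0.54 ± 0.090 (adjusted p = 0.0012) was below the 1.5-fold threshold. *Polr1c*, an assembly subunit shared with RNA polymerase III, was at 56.8, 59.4 and 54.3 CPM in control and 42.2, 43.5 and 47.1 CPM in Kit-lo libraries. Its log2 difference was -0.36 ± 0.11 (adjusted p = 0.025) with no overlap. In 5 of the 6 fits that left out 1 library its adjusted p was above 0.05, at log2 differences from -0.40 to -0.33. *Polr1d*, the other shared subunit, had a log2 difference of 0.46 (adjusted p = 0.082), and *Polr1e*, part of a heterodimer that helps the polymerase start, one of -0.19 (adjusted p = 0.22). No subunit was called, by edgeR, by DESeq2 or at an unadjusted p under 0.05 with the same fold, so the count was 0 in each. By edgeR 9.83% of all genes were called lower and 12.1% higher.

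Relative levels of the subunits in control CFU-E, taken as RNA-seq CPM per kilobase of annotated transcript, were 55.3 ± 2.88 for *Polr1b*, 43.3 ± 1.94 for *Polr1c*, 38.5 ± 3.52 for *Polr1e*, 23.9 ± 0.754 for *Polr1a* and 7.75 ± 0.589 for *Polr1d* (SD, n = 3 each). *Polr1c* and *Polr1e* lay within the sum of their SDs, and the other neighbours in this order did not. The annotated length need not be that of the expressed isoform. In the m6A input of control CFU-E the subunits stood in another order. Mean CPM there, not divided by length, was 225 for *Polr1d*, 216 for *Polr1c*, 77.3 for *Polr1e*, 47.3 for *Polr1b* and 9.27 for *Polr1a*. The order by CPM per kilobase thus holds for this RNA-seq only.

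The snoRNP core proteins held the largest falls. *Rrp9* encodes the U3-specific core protein. It was at 260, 220 and 255 CPM in control libraries and at 133, 111 and 130 CPM in Kit-lo libraries. No library of one group reached the other, and the fall was 1.97-fold (log2 -0.98 ± 0.10, adjusted p = 7.1e-05). *Nop58*, a core protein of all box C/D snoRNPs, was at 916, 739 and 903 CPM in control and 438, 512 and 472 CPM in Kit-lo libraries. It fell 1.80-fold (log2 -0.85 ± 0.10, adjusted p = 0.00016), again without overlap. *Nop56*, the partner of Nop58 in the same particle, was at 479, 422 and 408 CPM in control and 358, 352 and 302 CPM in Kit-lo libraries. Its log2 difference was -0.37 ± 0.094 (adjusted p = 0.012), below the fold threshold and without overlap. *Nop10*, the small core protein of the other class, the H/ACA snoRNPs, was at 117 ± 6.65 CPM and 122 ± 6.77 CPM (SD, n = 3 each), with a log2 difference of 0.05 and a 95% interval from -0.15 to 0.25. Of these 4 genes 2 were called lower, beside 9.83% of all genes, and the median log2 difference of the 4 was -0.61. *Rrp9* and *Nop58* stayed below the fold threshold line in all 12 alternative fits, and they were the 2 genes called when the test was made against the 1.5-fold threshold itself. In the control RNA-seq *Nop58* also had the most CPM per kilobase of the 41 genes, at 498 ± 57.8. *Rrp1* stood at 492 ± 21.8, and the 2 did not differ beyond their spread. Exons of *Nop56* overlap snoRNA genes on the same strand over 8.0% of their length.

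**Figure D2:**
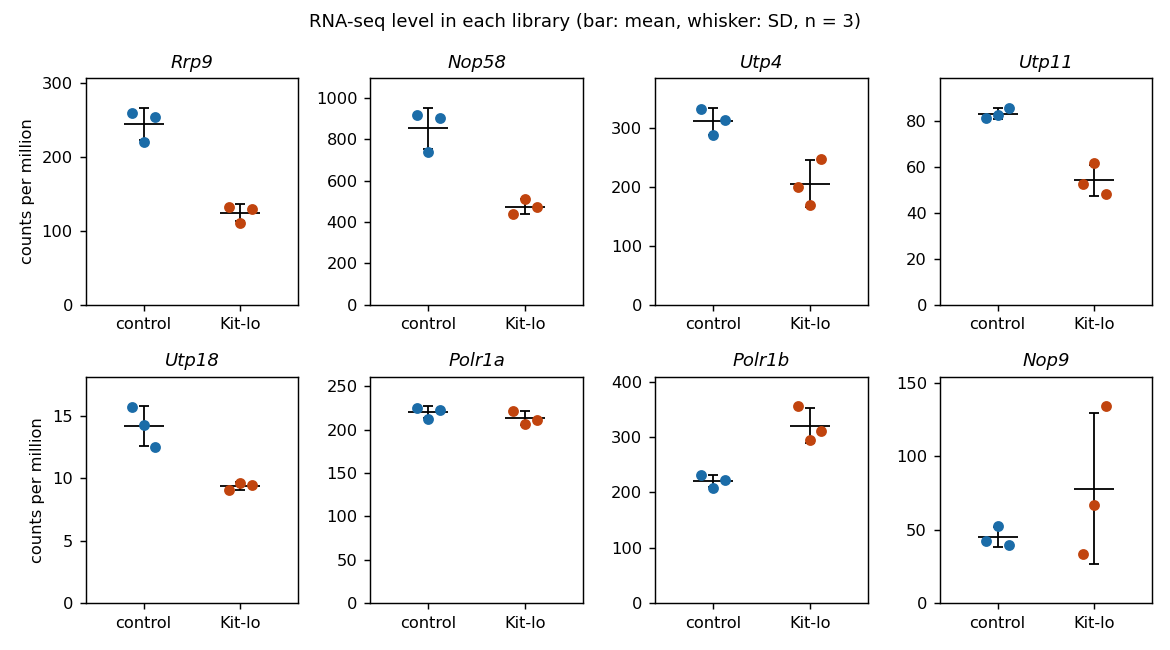
RNA-seq level, in CPM on axes that start at 0, of the 5 genes that fell, of the RNA polymerase I subunits *Polr1a* and *Polr1b* and of *Nop9*, with 1 point per library and bars for mean and SD (n = 3 each). For *Rrp9* the Kit-lo libraries sit between 111 and 133 and the controls between 220 and 260, whereas those of *Polr1a* overlap and those of *Nop9* spread from 33.3 to 134.

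Of the 19 small-subunit processome genes, 3 fell, beside 9.83% of all genes, and the difference from that share was not tested. *Utp4* encodes a protein of the UTP-A complex, the first to bind the precursor, and was at 333, 288 and 314 CPM in control and 199, 169 and 248 CPM in Kit-lo libraries. Its fall was 1.52-fold (log2 -0.60 ± 0.13, adjusted p = 0.0051), with no overlap, though the third Kit-lo library stood nearest the controls. *Utp11*, a processome factor, was at 81.0, 82.6 and 85.6 CPM in control and 52.3, 61.6 and 48.2 CPM in Kit-lo libraries, a fall of 1.54-fold (log2 -0.62 ± 0.11, adjusted p = 0.0021). *Utp18*, of the UTP-B complex, was far lower in the RNA-seq, at 15.7, 14.3 and 12.5 CPM in control and 9.04, 9.61 and 9.49 CPM in Kit-lo libraries. In the m6A input of control CFU-E its mean was 98.9 CPM, beside 105 for *Utp11* and 118 for *Utp4*. Between the RNA-seq groups *Utp18* fell 1.51-fold (log2 -0.59 ± 0.18, adjusted p = 0.027), again without overlap. These 3 folds lie at the threshold. Without control replicate 1, 2 or Kit-lo replicate 1 or 2, the adjusted p of *Utp18* rose to between 0.053 and 0.11 and the call was lost. *Utp4* fell short of the fold without control replicate 1 or Kit-lo replicate 1 or 2, and *Utp11* without Kit-lo replicate 3, with their adjusted p at most 0.027 and 0.015 in any alternative.

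Smaller differences in the processome went both ways. *Nop14*, a partner of the rRNA methyltransferase Emg1, had a log2 difference of -0.41 ± 0.11 (adjusted p = 0.018) and *Utp14a*, a cofactor of the processome's helicase, one of -0.40 ± 0.092 (adjusted p = 0.0072). *Utp6*, of the UTP-B complex like *Utp18*, was higher at 0.43 ± 0.10 (adjusted p = 0.0097), and *Utp3* at 0.42 ± 0.082 (adjusted p = 0.0031), with 146, 129 and 139 CPM in control and 184, 186 and 184 CPM in Kit-lo libraries. Members of one complex thus lay on either side of 0: *Utp18* and *Utp6* of UTP-B differed in sign, and *Utp15* of UTP-A was at 0.10 (adjusted p = 0.41) beside *Utp4*. The 12 remaining processome genes had adjusted p-values of 0.076 or more. Those below 0 were *Nol10*, *Rrp12*, *Nol11*, *Rrp7a* and *Utp20*, from -0.26 to -0.05, and those above 0 were *Nol6*, *Utp15*, *Rrp36*, *Utp23*, *Utp14b*, *Nol7* and *Nop9*, from 0.09 to 0.80.

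*Nop9*, which binds the small-subunit precursor, varied widely between Kit-lo libraries. It was at 42.1, 52.4 and 39.8 CPM in control, but at 33.3, 66.4 and 134 CPM in the Kit-lo libraries. Its lowest Kit-lo library lay below every control and its highest above every control, so the log2 difference of 0.80 ± 0.38 was not called (adjusted p = 0.14). Without Kit-lo replicate 1 it was 1.16 with an adjusted p of 0.0049, and *Nop9* and *Nol7* were then both called higher. Its exons overlap *Cideb* on the opposite strand over 29.9% of their length, and the strand used in counting is not given in the sources used here. More than 10% of the exonic bases also overlapped a gene on the opposite strand in *Nol3* (48.2%), *Nol7* (16.5%), *Rrp7a* (12.5%), *Utp14a* (11.5%) and *Utp23* (11.5%). The counts of these genes are therefore less certain, and the size of any effect on them was not tested. *Nol7* was at 14.3, 10.8 and 11.6 CPM in control and 12.7, 20.8 and 21.5 CPM in Kit-lo libraries, with the same library lowest. *Utp14b* is a processed copy of *Utp14a* and stood at 10 to 35 counts per library, so that its reads cannot be securely told from those of its source gene and of *Utp14b-ps1*.

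Of the 10 genes of large-subunit assembly and rRNA modification, none was called by edgeR or DESeq2 (0 also at an unadjusted p under 0.05). Beside this, edgeR called 9.83% of all genes lower and 12.1% higher. Of the 10 genes, 4 had an adjusted p under 0.05 below the fold threshold, 1 lower and 3 higher. At that adjusted p and any fold, 16.9% of all genes were lower and 17.6% higher. *Nop53*, which docks the nuclear exosome on the large-subunit precursor, was at 723, 728 and 734 CPM in control and 486, 466 and 514 CPM in Kit-lo libraries. The libraries were far apart and tightly grouped, and its log2 difference of -0.58 ± 0.070 (adjusted p = 0.00019) missed the threshold of 0.585 by little. Under upper-quartile normalization, without the filter on low counts and without either control replicate 1 or Kit-lo replicate 3 it was called. The 3 others were higher. *Nol12*, an rRNA-processing factor, was at 35.1, 29.7 and 26.9 CPM in control and 45.3, 40.9 and 50.8 CPM in Kit-lo libraries (log2 0.58 ± 0.14, adjusted p = 0.011). *Nop2*, an rRNA cytosine methyltransferase, had a log2 difference of 0.40 ± 0.11 (adjusted p = 0.018), and *Rrp15* one of 0.31 ± 0.086 (adjusted p = 0.020). The remaining 6, *Nol9*, *Rrp8*, *Rrp1b*, *Rrp1*, *Nop16* and *Nol8*, ranged from -0.48 to 0.28 with adjusted p-values of 0.074 or more. The 10 genes had a median of 0.09.

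The symbol-only genes were low. *Nol4l* was at 7.09 ± 1.54 CPM in control and 11.7 ± 4.32 CPM in Kit-lo libraries, and *Nol3* at 0.528 ± 0.549 and 1.35 ± 0.884 CPM (SD, n = 3 each). Their log2 differences were 0.72 (adjusted p = 0.082) and 1.36 (adjusted p = 0.26), the latter the highest of the 40 tested genes and from 2 to 40 counts per library. Without these symbols the median of the remaining genes was -0.008.

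Other genes of the same pathways were listed by name because the symbol rule leaves them out, and their calls stand beside 9.83% lower and 12.1% higher among all genes. Of 35 further small-subunit processome and assembly genes, 30 were below 0, 5 were called lower and 0 higher, and the median log2 difference was -0.24, beside -0.05 for the 19 processome genes above. The largest falls were *Nat10*, an rRNA acetyltransferase (log2 -1.24 ± 0.14, 293 against 124 CPM, adjusted p = 0.00015), *Wdr36* (-0.85, adjusted p = 5.0e-05) and *Aatf* (-0.75, adjusted p = 0.00015). Of 45 further large-subunit genes, 32 were below 0, 8 were called lower and 0 higher, and the median was -0.32, beside 0.09 for the 10 genes above. In both lists the count called higher was 0 by DESeq2 and at an unadjusted p under 0.05 with the same fold as well. At an adjusted p under 0.05 and any fold, 11 of the 35 were lower and 2 higher. In the list of 45 the same rule gave 25 lower and 4 higher, beside 16.9% lower and 17.6% higher among all genes. Of all 11979 genes tested, 5916 were below 0. The large-subunit genes that fell were led by *Npm1*, the abundant nucleolar chaperone nucleophosmin, at 1110, 1210 and 1300 CPM in control and 445, 435 and 441 CPM in Kit-lo libraries (log2 -1.45 ± 0.078, adjusted p = 1.6e-06). *Wdr12*, a partner of Pes1 and Bop1 in large-subunit maturation, had a log2 difference of -1.12 and *Ebna1bp2* one of -0.86.

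Of 12 further snoRNP genes, 3 were called lower and 1 higher, beside 9.83% and 12.1% of all genes. Their median was -0.33, beside -0.61 for the 4 core genes above. At an adjusted p under 0.05 and any fold, 7 of the 12 were lower and 3 higher, beside 16.9% and 17.6% of all genes. The snoRNP assembly factors *Naf1* (-1.16, adjusted p = 0.035, at 1.17 to 3.16 CPM) and *Znhit6* (-1.08, adjusted p = 0.00033) fell, and the H/ACA assembly factor *Shq1* rose (0.78, adjusted p = 0.00078). Fibrillarin, the methyltransferase that sits with Nop56 and Nop58 in the box C/D particle, is encoded by *Fbl*. In control and Kit-lo libraries *Fbl* was at 16.5 ± 2.80 and 17.0 ± 5.60 CPM (SD, n = 3 each). Its log2 difference was 0.04 (adjusted p = 0.93). In the m6A input of control CFU-E *Fbl* was at 906 CPM, and the reason for its low RNA-seq level was not tested. Of 15 further genes of RNA polymerase I and its initiation factors, 1 was called lower and 1 higher, with a median of 0.09, beside -0.04 for the 5 subunits above. Both called genes encode subunits of the same promoter selectivity factor: *Taf1a* was at 29.0, 24.0 and 24.4 CPM in control and 12.5, 17.3 and 6.68 CPM in Kit-lo libraries (log2 -1.08 ± 0.29, adjusted p = 0.015), whereas *Taf1c* was at 72.5, 70.7 and 85.5 against 131, 128 and 116 CPM (0.71 ± 0.11, adjusted p = 0.00062). At an adjusted p under 0.05 and any fold, 2 of the 15 were lower and 1 higher. Differences between these lists and the 41 genes were not tested.

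The m6A experiment asked how strongly each transcript of control CFU-E cells was captured by the m6A antibody. All 39 genes in the table passed the filter, and a gene was called when the adjusted p over all 11447 genes tested was under 0.05. Of the 39, 2 were enriched in the IP (5.13%), beside 7.9% of all genes, and 3 were lower in the IP (7.69%), beside 7.86% of all genes. The median log2 ratio of IP over input was -0.015, beside 0.056 for all genes, with 19 genes above 0 and 20 below. The ratio is relative to all captured RNA, so a value below 0 means less capture than the average transcript, not the absence of m6A. Of all called genes 50.1% were enriched, and this split was 60.6% with library sizes alone and 65.8% with upper-quartile normalization, which moved the median of all genes up by 0.157 and 0.127. Relative to that median the 39 genes stayed within -0.088 to -0.060.

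**Figure D3:**
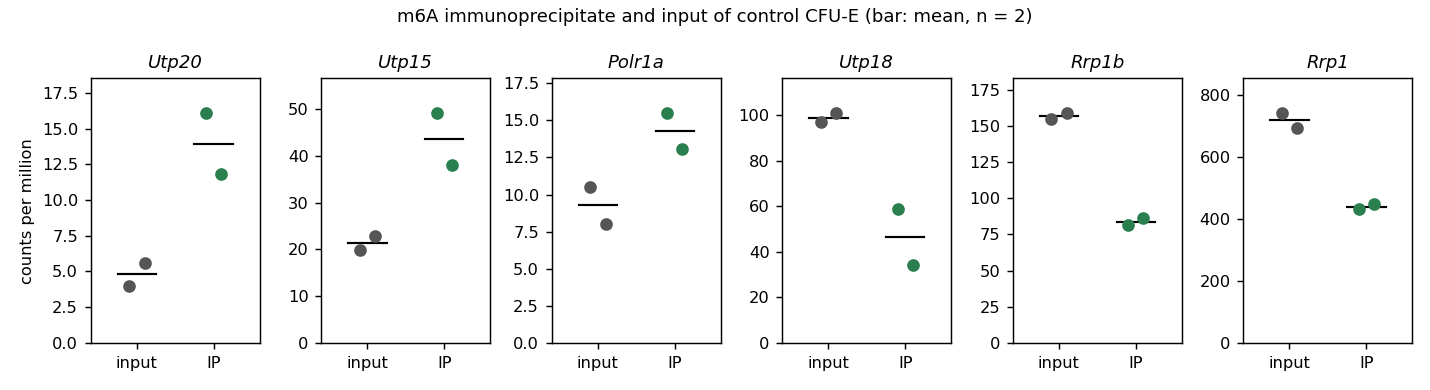
Level in CPM, on axes that start at 0, in the 2 input and 2 IP libraries of control CFU-E for the called genes and for *Polr1a*, with bars for the mean. The IP libraries of *Utp20* and *Utp15* lie above both inputs, those of *Utp18*, *Rrp1b* and *Rrp1* below both, and *Polr1a* was not called.

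Both enriched genes belong to the small-subunit processome. *Utp20*, a very large scaffold protein, was at 4.01 and 5.62 CPM in input and 16.1 and 11.8 CPM in IP libraries. That is a 2.91-fold ratio (log2 1.54 ± 0.31, adjusted p = 0.0092), on only 91 and 100 input counts. *Utp15*, of the UTP-A complex, was at 19.9 and 22.8 CPM in input and 49.2 and 38.0 CPM in IP libraries, a 2.04-fold ratio (log2 1.03 ± 0.25, adjusted p = 0.021). Neither gene differed between control and Kit-lo cells, at -0.05 ± 0.13 and 0.10 ± 0.085 on the log2 scale (adjusted p = 0.80 and 0.41). Without input replicate 1, edgeR called no gene of the 39 in either direction, with 3 enriched and 3 lower at an unadjusted p under 0.05. Without input replicate 2 or IP replicate 1, *Utp20* alone was enriched, and without IP replicate 2 *Nol11* and *Nol6* joined both.

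*Utp18* had the lowest ratio, at 96.8 and 101 CPM in input and 59.0 and 34.3 CPM in IP libraries (log2 -1.08 ± 0.27, adjusted p = 0.025). *Rrp1b* was at 155 and 159 CPM in input and 81.3 and 86.3 CPM in IP libraries (log2 -0.90 ± 0.21, adjusted p = 0.017). Its paralogue *Rrp1*, which like it is a nucleolar factor of large-subunit processing, was at 741 and 693 CPM against 432 and 447 CPM (log2 -0.71 ± 0.21, adjusted p = 0.049). In all 3 both IP libraries lay below both inputs. Both IP libraries also lay apart from both inputs in many genes that were not called. Among them were *Nop58* (adjusted p = 0.64, edgeR), *Nop53*, *Nop56*, *Polr1a*, *Polr1b* and *Utp11*, so this separation does not set the called genes apart. The share of all genes separated in this way was not counted. *Rrp1b* lost its call without either input replicate or IP replicate 1, with adjusted p-values up to 0.11, *Rrp1* lost it without the same libraries, with adjusted p-values up to 0.32, and *Utp18* lost it without input replicate 1 or IP replicate 2.

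No gene of the 39 was both enriched in the IP and called lower in Kit-lo cells, beside 88 of the 10773 genes tested in both experiments (0.817%). The count was also 0 by DESeq2 and at unadjusted p-values under 0.05, and it was 1 with the replicate block, under which *Utp4* was enriched (0.48, adjusted p = 0.028). Of the 5 genes that fell, *Utp4* was at 0.49 ± 0.24 on the log2 IP over input scale (adjusted p = 0.19), *Utp11* at 0.35 ± 0.23, *Nop58* at 0.16 ± 0.21, *Rrp9* at -0.42 ± 0.21 and *Utp18* at -1.08 ± 0.27. They thus covered most of the range of the 39. *Utp18* was the one gene called in both experiments, and it was low in both.

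**Figure D4:**
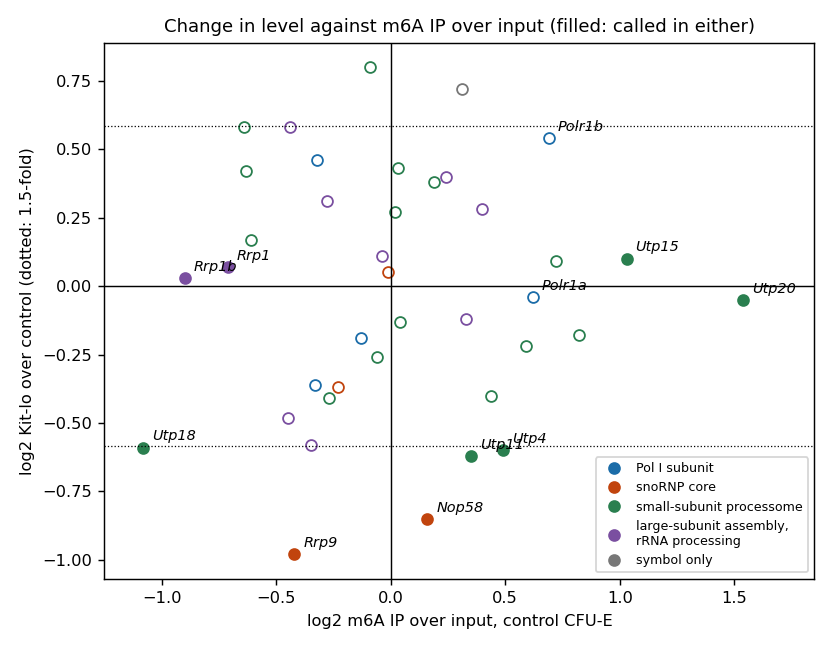
Log2 Kit-lo over control level (vertical) against log2 IP over input in control CFU-E (horizontal) for the 39 genes in both tables, coloured by role, with filled points for genes called in either experiment. The genes enriched in the IP, *Utp20* and *Utp15*, lie near 0 on the vertical axis, and the genes that fell spread from -1.08 to 0.49 on the horizontal axis.

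Across the 39 genes the 2 measures had a Pearson r of 0.03 and a Spearman rho of -0.01, and across all 10773 genes both were -0.03. These are correlations across genes, which are not independent replicates, and they are descriptions only.

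RNA polymerase I subunits were not called in the m6A experiment by edgeR as fitted here or by DESeq2. At an unadjusted p under 0.05, 2 of the 5 were enriched, *Polr1a* and *Polr1b*. The share of all genes past an unadjusted p was not counted in any fit, so these 2 are not shown to exceed it. *Polr1a* was at 10.5 and 8.04 CPM in input and 15.5 and 13.1 CPM in IP libraries, with a log2 ratio of 0.62 ± 0.28 (adjusted p = 0.15). *Polr1b* was at 39.1 and 55.5 against 86.6 and 65.9 CPM (0.69 ± 0.26, adjusted p = 0.094). *Polr1b* was called enriched with upper-quartile normalization (0.81, adjusted p = 0.043) and with the replicate block (0.70, adjusted p = 0.017). The smaller subunits *Polr1c*, *Polr1d* and *Polr1e* had ratios of -0.33, -0.32 and -0.13. The snoRNP core genes ranged from -0.42 for *Rrp9* to 0.16 for *Nop58*. The 10 large-subunit genes had a median of -0.31 and the 19 processome genes one of 0.04. All other genes of the 39 not yet given a ratio lay between -0.64 for *Nol7* and 0.82 for *Nol11*, with adjusted p-values of 0.066 or more.

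Longer transcripts had higher ratios. The 20 genes with annotated transcripts of at most 2921 bases had a median log2 ratio of -0.27, and 6 of the 20 were above 0. The 19 longer ones had a median of 0.31, and 13 of the 19 were above 0. *Utp20*, at 8821 bases, and *Polr1a*, at 9216 bases, were the longest. Among all genes the same split gave medians of -0.16 and 0.31. Pearson's r between the log2 ratio and log2 length was 0.52 (Spearman's rho 0.49) over the 39 genes and 0.25 (0.33) over 11441 genes. These points share libraries, and the values are descriptions. Input is the denominator of the ratio, and longer transcripts had less input relative to the control RNA-seq. The Pearson r of that relation with log2 length was -0.61 over the 39 genes and -0.53 over 11305 genes. Mean input was only 4.82 CPM for *Utp20* and 9.27 CPM for *Polr1a*. The part of this in the length trend was not tested. *Rrp1b*, at 4874 bases, and *Utp15*, at 4120 bases, were called in opposite directions. GGACT, a common form of the m6A sequence motif, occurred at a median of 1.0 per kilobase of transcript in the 39 genes and 1.04 in all genes, and its density had an r of -0.24 with the ratio over the 39 genes. *Utp20* held 6 copies and *Utp15* held 2, beside 10 in *Nol12*, whose ratio was -0.44 (adjusted p = 0.20). The change between control and Kit-lo cells had an r of 0.24 with log2 length over 39 genes and -0.01 over all genes.

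**Figure D5:**
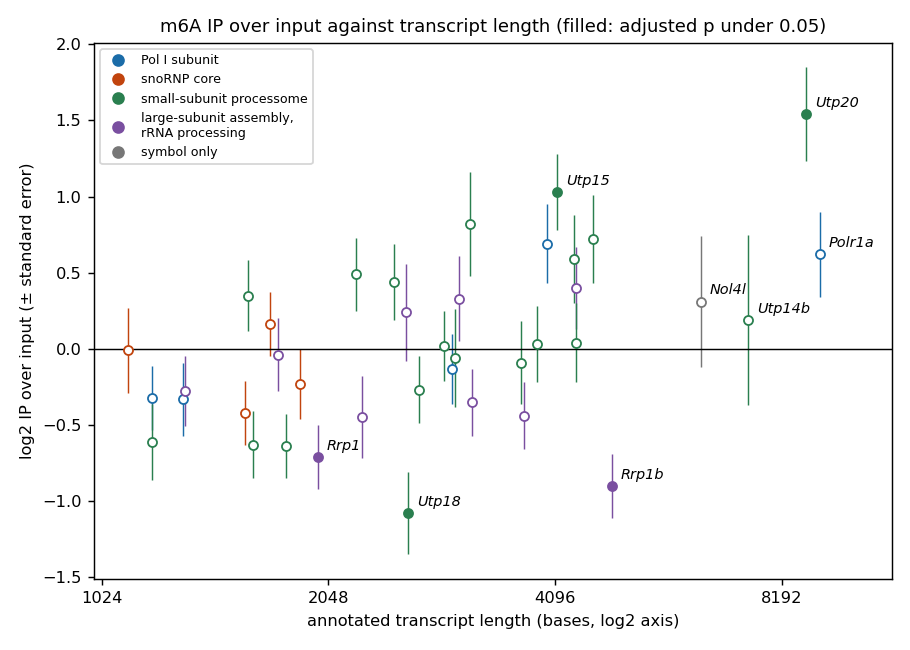
Log2 IP over input (vertical, with standard errors) against the length of the annotated transcript in bases on a log2 axis, for the 39 genes by role, with filled points for an adjusted p under 0.05. Genes over 2921 bases mostly lie above 0, with *Rrp1b* at -0.90 as the lowest of them.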

How the data were processed

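RNA-seq was measured in 3 control CFU-E and 3 *Mettl3*-deficient CFU-E Kit-lo libraries (Smart-seq2, oligo-dT primed), and m6A in control CFU-E with 2 input and 2 IP libraries (SLIM-seq, amplified with a 3′ primer). The authors trimmed reads with fastp 0.23.4, quantified transcripts with kallisto 0.48.0 and used tximport to reach gene level. The values deposited by the authors are estimated counts, whole numbers without normalization. The methods name mm10, the processing notes also GRCm39. Use of strand and of the molecular identifiers in counting is not given in the sources used here. Depth was 17429262 to 37142742 counts per library, and PCR copies mean that counting alone understates the error.

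The counts were fitted with edgeR 4.0.16 in R 4.3.3, once for each experiment (TMM, filterByExpr, glmQLFit, glmQLFTest, no block), with Benjamini-Hochberg adjustment over all genes tested. CPM are TMM-scaled, and the SE is the absolute log2 fold change over the square root of F. The biological coefficient of variation was 19.1% and 21.9%. DESeq2 1.42.0, other normalizations, filters and thresholds, a replicate block and leaving out each library were alternatives. The fits were tested on simulated data first.

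The genes and lists were chosen with earlier results of these data known. By rule, *Polr1a*, genes called in the RNA-seq (up to 12), enriched (up to 6) or lower in the IP (up to 4) have values for every library, each further gene is named, and each list gives up to 3 called genes. *Kit* was read against the sorting gate, and *Mettl3* counts do not check the deletion. Other library values were chosen after they were seen.

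Coordinates and transcripts come from GENCODE's annotation of GRCm38, with the principal coding transcript of each gene. All 41 symbols matched it. The longest coding transcript in its place was added after seeing the data. The 6 ProE samples were not analysed here.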

Additional observations from a re-analysis of the deposited data

How the results depend on the processing

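The count of genes called lower was 5 by edgeR, by DESeq2 and with DESeq2's size factors, and it was 2 with library sizes alone, 2 when tested against the 1.5-fold threshold and 10 with no fold threshold. The count called higher was 0, and 2 with library sizes alone and 6 with no fold threshold. Genes lower in the IP numbered 3, and 5 by DESeq2, 1 with library sizes alone and 1 at a log2 ratio of at least 1. Those enriched numbered 2, and 4 with upper-quartile normalization. The median log2 IP over input of -0.015 was 0.125 with library sizes alone and 0.124 with upper-quartile normalization. With each library left out in turn, genes called lower ran from 3 to 6, called higher from 0 to 2 (*Nop9* and *Nol7* without Kit-lo replicate 1, *Nol12* and *Polr1b* without Kit-lo replicate 2, *Nol12* without control replicate 1), enriched from 0 to 4 and lower in the IP from 0 to 2. The medians ran from -0.096, without Kit-lo replicate 1, to 0.118 for Kit-lo over control and from -0.164 to 0.063 for IP over input. In the last fits 1 arm held a single library, which was assumed to vary like the other arm.

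Same-numbered RNA-seq libraries did not deviate together (correlations -0.072 to 0.034), and the labels do not pair any. With the replicate block, 4 genes were called lower and 0 higher in the RNA-seq. In the m6A libraries the same correlation was 0.21. With 2 libraries in each group both pairs give the same value by construction, so it counts once. There the replicate block gave 6 enriched (*Polr1b* among them) and 8 lower in the IP. With it 1 gene, *Utp4*, was both enriched and called lower. Of all genes, 1783 were then enriched and 1755 lower in the IP.

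*Polr1a* changed sign with library sizes alone, at 0.01, and ran from -0.08 to 0 with libraries left out. Of 204 refits of the genes past the adjusted p in the RNA-seq and *Polr1a*, 24 lost that adjusted p. Of 60 such refits in the m6A data 16 did, among them *Rrp1* under 3 of the normalizations. The r between IP over input and length was 0.50 with the longest coding transcripts. Causes of these shifts were not tested. Of all genes, 1178 were called lower and 1453 higher, and 482 and 665 when tested against the fold threshold and 2024 and 2104 with no fold threshold. In the m6A data 904 were enriched and 900 lower, and with upper-quartile normalization 1451 were enriched. Leaving out a library gave 164 to 1358 enriched and 427 to 968 lower, the fewest of both without input replicate 1.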

Other observations

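The lists outside the symbol rule also held genes called in the m6A data, given here as values chosen after they were seen. *Rrn3*, which encodes the initiation factor that brings RNA polymerase I to the ribosomal DNA promoter, was at 184 and 347 CPM in input and 708 and 749 CPM in IP libraries, a log2 ratio of 1.45 ± 0.30 (adjusted p = 0.0091, edgeR). Its level did not pass the test between control and Kit-lo cells (log2 0.12, adjusted p = 0.40). Of the 35 further processome genes, 4 were enriched, *Wdr36*, *Wdr3*, *Bms1* and *Tsr1*, and 2 were lower in the IP, *Imp3* and *Bysl*. Of the 45 further large-subunit genes, 3 were enriched, *Mdn1*, *Gnl3l* and *Nvl*, and 3 were lower, *Rrs1*, *Ddx51* and *Noc2l*. Among all genes 7.9% were enriched and 7.86% lower in the IP. *Wdr36*, a UTP-B protein, was both enriched in the IP (log2 1.61 ± 0.29, adjusted p = 0.0053) and lower in Kit-lo cells (-0.85, adjusted p = 5.0e-05). *Mdn1*, a very large ATPase of large-subunit maturation, was likewise enriched (1.84 ± 0.27, adjusted p = 0.0014) and lower (-0.68, adjusted p = 0.00052). In the box C/D particle, *Fbl* was lower in the IP, at 926 and 885 CPM in input and 401 and 491 CPM in IP libraries, and so was the H/ACA gene *Gar1* (log2 -1.95 ± 0.28, adjusted p = 0.0011).

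Levels of these genes in the control CFU-E RNA-seq and in the m6A input are set side by side as a description, since the tables were normalized separately and the protocols differ. *Polr1d* was at 9.27 CPM in the RNA-seq and 225 CPM in the input, a log2 ratio of 4.60, whereas *Polr1a* was at 220 and 9.27 CPM, a log2 ratio of -4.57. *Utp20* had the lowest ratio, -4.94. Across the 39 genes the log2 ratio of input over RNA-seq CPM had a Pearson r of -0.61 (Spearman's rho -0.57) with log2 transcript length, and across 11305 genes one of -0.53 (rho -0.54), with no test made. *Fbl* was at 16.5 CPM in the RNA-seq and 906 CPM in the input.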
